A study of Mus musculus with 6 samples.

Results

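The genes described here are 33 genes of the contractile apparatus of smooth muscle and myoepithelial cells, listed by name for their known place in contraction. They cover actins and myosins, the proteins that bind actin, the enzymes that switch myosin on and off, intermediate filaments, the dense bodies and adhesions on which filaments are anchored, calcium entry and transcription regulators. All 33 had a row among the 43280 rows of the count table, and 32 had enough counts to be tested.

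RNA was sequenced from submandibular glands (SMGs) of adult female mice, with 3 libraries labelled WT (1, 4 and 5) and 3 labelled DKO (1, 4 and 5). In the DKO, Hs3st3a1 carries a frameshift deletion in its opening exon made with zinc finger nucleases, and Hs3st3b1 carries a LacZ cassette. Both genes encode enzymes that add a 3-O-sulfate to heparan sulfate, and the comparison asked which genes changed when both were lost. The inactivation is in all cells from the germline and not limited to one cell type, several founder lines were made and the one sequenced was not given, and neither was the age. WT animals were littermates, the single knockouts were on a C57BL/6 background, and nothing in the labels ties a number in one group to the same number in the other. Each library was taken as a separate gland, and since the labels do not say that the glands came from different animals, p-values measure the spread between these libraries only, which may be technical.

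Myoepithelial cells (MECs) are epithelial cells that wrap around acini and ducts and squeeze saliva out. They share much of their machinery with the smooth muscle of vessel walls: calcium entering the cell activates myosin light chain kinase, phosphorylated myosin pulls on actin filaments, and the filaments transmit force to the membrane through dense bodies and adhesions. Many of these genes carry CArG boxes, the DNA motif bound by serum response factor (SRF). Because a whole gland was sequenced, fewer cells of a type and less RNA per cell cannot be told apart in any value below.

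Total counts were between 23674258 and 29611975 per library. The targeted genes did not separate the groups: Hs3st3a1 was at 14.8, 10.8 and 13.4 normalized counts in WT and 10.4, 8.36 and 15 in DKO, and Hs3st3b1 was at 171, 199 and 234 against 242, 125 and 218. These counts therefore do not check the labels. The study also measured contractile, acinar and targeted genes by qPCR in its DKO glands, which was not used here, and directions below are those of the labels. By qPCR it reported Hs3st3a1 and Hs3st3b1 as not expressed in adult DKO glands of either sex. It also reported lower Acta2, Cnn1, Myh11, Mylk and Tagln in female DKO glands. The counts of the targeted genes here differ from that report, for a reason that was not tested. WT 5 stood apart in amylase, with 24742 normalized counts of Amy1 against 131 to 256 in the other 5 libraries, and WT 1 was highest in leukocyte markers.

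CArG boxes were looked for in the 250 bases before each RefSeq start (GRCm38.p6), for which 29 of the 33 genes had an entry, Actg2, Tagln, Myh11 and Myocd having none. The canonical box was present in 6 of those 29 genes (20.7%) and in 439 of all 27025 genes with an entry (1.62%). Allowing 1 G or C in the 6-base core, a form added after the first search, gave 11 of 29 (37.9%) against 2643 of 27025 (9.78%). The box reads as a box on both strands. The sites of the 4 genes that were lower in DKO and held one are shown first, followed by Srf itself and Cnn2, which did not pass the test. The box is in capitals within 30 bases of the gene's own strand, and a match describes the letters only and not binding.
Acta2, 84 bases before the start (chr19:34255438-34255467, minus strand): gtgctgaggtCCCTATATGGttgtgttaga
Acta2, 34 bases before the start (chr19:34255388-34255417, minus strand): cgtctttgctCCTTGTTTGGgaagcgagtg
Myl9, 161 bases before the start (chr2:156775293-156775322, plus strand): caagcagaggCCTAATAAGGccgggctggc
Myl9, 99 bases before the start (chr2:156775355-156775384, plus strand): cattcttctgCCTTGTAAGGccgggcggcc
Synm, 239 bases before the start (chr7:67759962-67759991, minus strand): caacggggagCCTCATAAGGtgtcccagat
Vcl, 227 bases before the start (chr14:20929161-20929190, plus strand): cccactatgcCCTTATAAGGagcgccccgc
Srf, 82 bases before the start (chr17:46556225-46556254, minus strand): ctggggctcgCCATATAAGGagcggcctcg
Srf, 62 bases before the start (chr17:46556205-46556234, minus strand): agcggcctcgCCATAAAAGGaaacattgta
Cnn2, 56 bases before the start (chr10:79988534-79988563, plus strand): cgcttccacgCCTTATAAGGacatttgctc

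Both Acta2 sites and the second Myl9 site were of the looser form, as was the site of Synm. GENCODE places the Acta2 sites inside a 5′ untranslated exon of a longer Acta2 transcript and the Synm site inside an exon of Gm45102 on the opposite strand, while the others lie outside annotated exons. Either form was present in 4 of the 9 genes lower in DKO that had an entry (44.4%) and in 7 of the 20 others (35%).

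Of the 32 genes tested, 11 were lower in DKO (34.4%) and 0 were higher at an adjusted p under 0.05 with DESeq2, where 1.88% of all 18606 rows tested were lower and 1.02% higher. The 11 were Acta2, Cnn1, Tagln, Myh11, Myl9, Mylk, Tpm2, Synm, Synpo2, Flna and Vcl. All libraries labelled DKO lay below all labelled WT in 18 of the 32 genes, against 10.5% of all rows. The log2 fold change was negative in 28 genes and its median over the 32 was -0.49, against 0.001 over all rows. The study's text names 7 of the 11 as MEC genes, in work that includes these same libraries, so these are not independent evidence of direction. Of the other 25 genes tested, 4 were lower, Synm, Flna, Synpo2 and Vcl, with a median log2 fold change of -0.40 over the 25. The whole list was chosen with earlier results of these data known, so these 25 are not an independent set either. An edgeR quasi-likelihood test called 0 of the 32, with 18 at an unadjusted p under 0.05 (17 with DESeq2) and a smallest adjusted p of 0.0562, and it called 10 rows of the whole table.

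**Figure D1:**
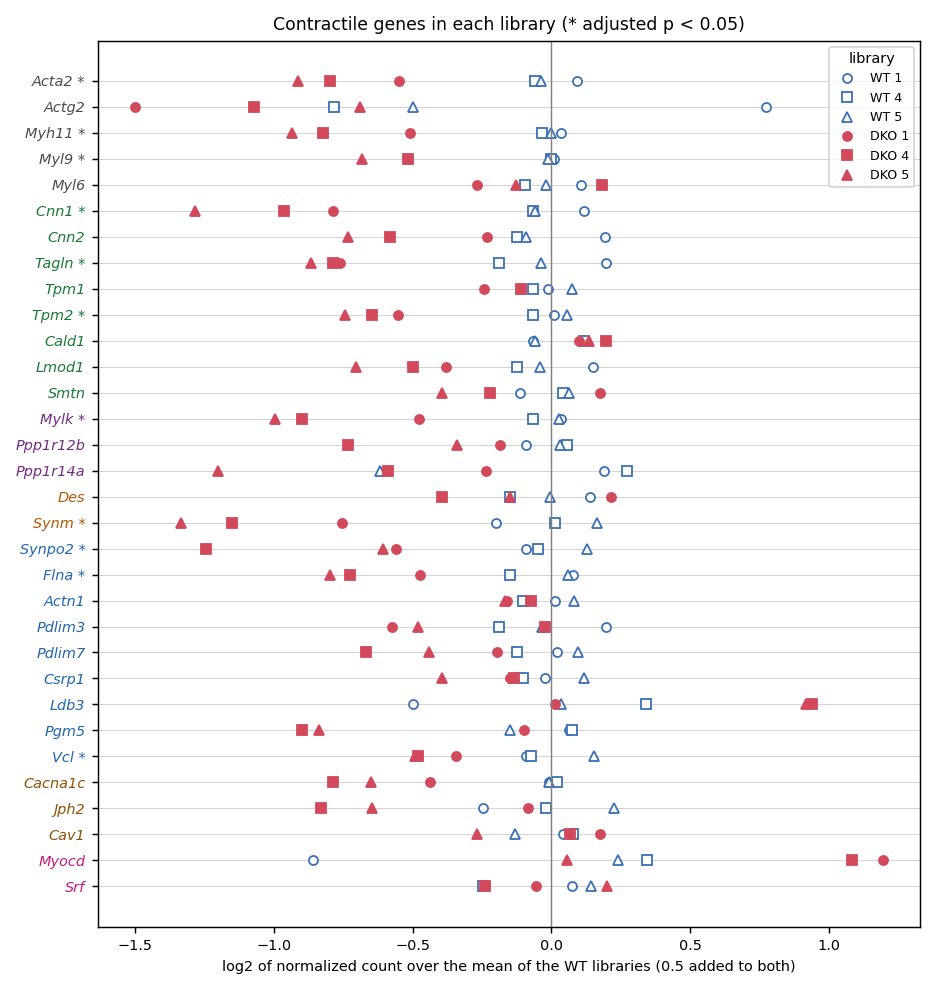
Normalized counts of the 32 genes tested, in each library, as the log2 ratio to the mean of the WT libraries with 0.5 added to both (horizontal axis), genes grouped by role and label colour, open blue for WT, filled red for DKO, shape for the library number, asterisk for an adjusted p under 0.05. The DKO points of the 11 marked genes all lie left of the WT points, and DKO 1 is the highest of the DKO libraries in 10 of the 11.

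The filament proteins were led by smooth muscle actin and smooth muscle myosin. Acta2, the actin of smooth muscle and MECs, was at 2695, 2429 and 2468 normalized counts in WT 1, 4 and 5 and at 1730, 1456 and 1345 in DKO 1, 4 and 5. Myh11, the smooth muscle myosin heavy chain, was at 4401, 4200 and 4302 against 3021, 2431 and 2251. In both genes the groups were well apart, and DKO means were 59.7% of WT means, with a log2 fold change of -0.74 ± 0.12 (SE) in each (adjusted p of 1.49e-07 for Acta2 and 2.77e-07 for Myh11). Myl9, the regulatory light chain that the kinase phosphorylates, was at 645, 640 and 635 in WT, the narrowest spread among the 11, and at 447, 447 and 399 in DKO. Its log2 fold change was -0.57 ± 0.12 (SE, adjusted p of 4.20e-04).

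Not every filament gene differed. Actg2, the enteric actin, had the lowest log2 fold change of the 32, -1.07 ± 0.53 (SE), yet it was scarce and its groups overlapped. It was at 61.4, 20.5 and 25.1 in WT and 12.3, 16.7 and 21.9 in DKO (adjusted p of 0.336), and without WT 1 the change was -0.43. The essential light chain Myl6, which non-muscle myosin also uses, was at 1642 ± 116 (SD, n = 3) in WT and 1577 ± 258 in DKO, with overlapping libraries (adjusted p of 0.929).

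Among the 8 actin-binding proteins 3 were lower. Cnn1, calponin, which binds actin and slows myosin, was at 658, 579 and 583 in WT and 351, 311 and 249 in DKO. Its DKO mean was 50.1% of its WT mean, a log2 fold change of -0.99 ± 0.15 (SE), and it had the smallest adjusted p of the list, 8.92e-08. Tagln, transgelin, which crosslinks actin, was at 899, 689 and 765 against 462, 454 and 430, the DKO values close together and all below WT. Tpm2, beta-tropomyosin, lies along the actin filament and was at 677, 642 and 699 against 458, 430 and 402. The log2 fold changes were -0.80 ± 0.14 (SE, adjusted p of 1.58e-06) for Tagln and -0.64 ± 0.12 (SE, adjusted p of 3.78e-05) for Tpm2.

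The remaining actin-binding genes did not pass the test. Tpm1, alpha-tropomyosin, was at 1681 ± 81.8 (SD, n = 3) in WT and 1512 ± 79 in DKO, a DKO mean of 90% of WT, and the libraries did not overlap. The 95% interval of its log2 fold change ran from -0.34 to 0.04, while that of Tpm2 ran from -0.88 to -0.41. Lmod1, a leiomodin that nucleates actin in smooth muscle, was at 201, 166 and 176 against 139, 128 and 111 (adjusted p of 0.124). Cnn2, a calponin found in many cell types, was at 274, 220 and 225 against 204, 160 and 144 (adjusted p of 0.153). Both sets of libraries were apart in these 2 genes also. Smtn, smoothelin, overlapped between groups at 542 ± 35.5 and 497 ± 104. Cald1, caldesmon, whose row sums smooth muscle and non-muscle forms, was at 2901 ± 214 in WT and 3208 ± 112 in DKO, a log2 fold change of 0.14, which became -0.09 with total counts as size factors.

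Myosin is switched on by Mylk, the calcium-dependent light chain kinase, and off by a phosphatase. Mylk was at 1742, 1624 and 1735 in WT and 1221, 912 and 853 in DKO, a log2 fold change of -0.77 ± 0.14 (SE, adjusted p of 1.42e-05). Ppp1r12b, a targeting subunit of the myosin phosphatase, was at 1155, 1282 and 1259 against 1084, 741 and 974, without overlap but short of the threshold (adjusted p of 0.0988). Ppp1r14a, an inhibitor of that phosphatase, had between 4.61 and 13.7 normalized counts in every library, too few to show a difference of this size, its interval running from -2.05 to 0.77.

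Of the 2 intermediate filament genes 1 was lower. Synm, synemin, which joins intermediate filaments to vinculin and alpha-actinin, was at 438, 507 and 563 in WT and 298, 226 and 199 in DKO. It was the only one of the 11 whose means differed by more than 2-fold (2.08-fold down, at -1.06 ± 0.18 SE on the log2 scale, adjusted p of 1.76e-06). Des, desmin, the main muscle intermediate filament protein, was at 39.6, 32.3 and 35.8 against 41.7, 27.2 and 32.3, so DKO 1 was the highest library of all 6. Its interval ran from -0.81 to 0.64. The difference between the changes of Synm and Des was not tested.

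Dense bodies and adhesions, where actin filaments end, contributed 3 of the 11. Flna, filamin A, an actin crosslinker that binds integrins, had the most counts of the list, at 6320, 5389 and 6233 in WT and 4306, 3618 and 3438 in DKO. Vcl, vinculin, which couples adhesions to actin, was at 945, 956 and 1119 against 793, 722 and 716. Synpo2, synaptopodin-2, an actin-bundling protein of muscle, was at 223, 230 and 260 against 161, 100 and 156. The groups were apart in all 3 genes, and the DKO mean of Vcl was 73.9% of its WT mean. Log2 fold changes were -0.66 ± 0.11 (SE, adjusted p of 4.68e-06) for Flna, -0.44 ± 0.12 (SE, adjusted p of 0.0137) for Vcl and -0.77 ± 0.21 (SE, adjusted p of 0.0146) for Synpo2. The calls of Vcl and Synpo2 were lost without WT 5 (adjusted p of 0.206 and 0.24), without DKO 4 (0.0762 and 0.0848) and without DKO 5 (0.138 and 0.0557), and that of Synpo2 also without WT 1 (0.0972).

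For the other 6 genes of this group no difference passed the test. Pgm5, an adhesion protein related to phosphoglucomutase, was at 355, 358 and 306 in WT and 317, 182 and 190 in DKO, where DKO 1 alone lay within the WT range (adjusted p of 0.136, and 1.97e-04 without DKO 1). Pdlim7 and Csrp1, which carry LIM domains, lay below WT in every DKO library, at 74.6% and 85.7% of the WT mean. Pdlim3 overlapped, at 78.9%. Actn1, the alpha-actinin of non-muscle and smooth muscle cells, was at 867 ± 55 (SD, n = 3) against 790 ± 28.9. Ldb3, a Z-disc protein of striated muscle, was the exception in sign, at 17.8, 32.3 and 26 in WT and 25.6, 49.1 and 48.4 in DKO (log2 fold change of 0.69 ± 0.43 SE, adjusted p of 0.524), and it had few counts.

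Calcium entry and membrane genes gave no call. Cacna1c, the pore of the L-type calcium channel of muscle, was at 151, 154 and 151 in WT and 112, 87.8 and 96.8 in DKO. The WT libraries were nearly equal and the DKO libraries all lower, and the log2 fold change was -0.62 ± 0.21 (SE, adjusted p of 0.0655). Jph2, junctophilin, which holds the plasma membrane near calcium stores, overlapped at 63.5 ± 10.5 (SD, n = 3) and 45.2 ± 12.8. Cav1, caveolin, abundant in smooth muscle, endothelium and fat, was at 376 ± 28.7 and 377 ± 57.8, with an interval from -0.30 to 0.32. Oxtr, the oxytocin receptor that drives mammary myoepithelium, had 1, 1 and 1 counts in WT and 1, 0 and 2 in DKO, so it stayed under the minimum of 10 summed counts and no difference was detectable at this depth.

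Neither transcription regulator gave a call. Srf, the factor that binds CArG boxes, was at 265, 212 and 278 in WT and 242, 213 and 289 in DKO, almost the same levels (log2 fold change of -0.02 ± 0.18 SE, interval from -0.38 to 0.34). Myocd, myocardin, its muscle-specific partner, had 1, 3 and 3 counts in WT and 6, 5 and 2 in DKO, and received no adjusted p because of its low mean.

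**Figure D2:**
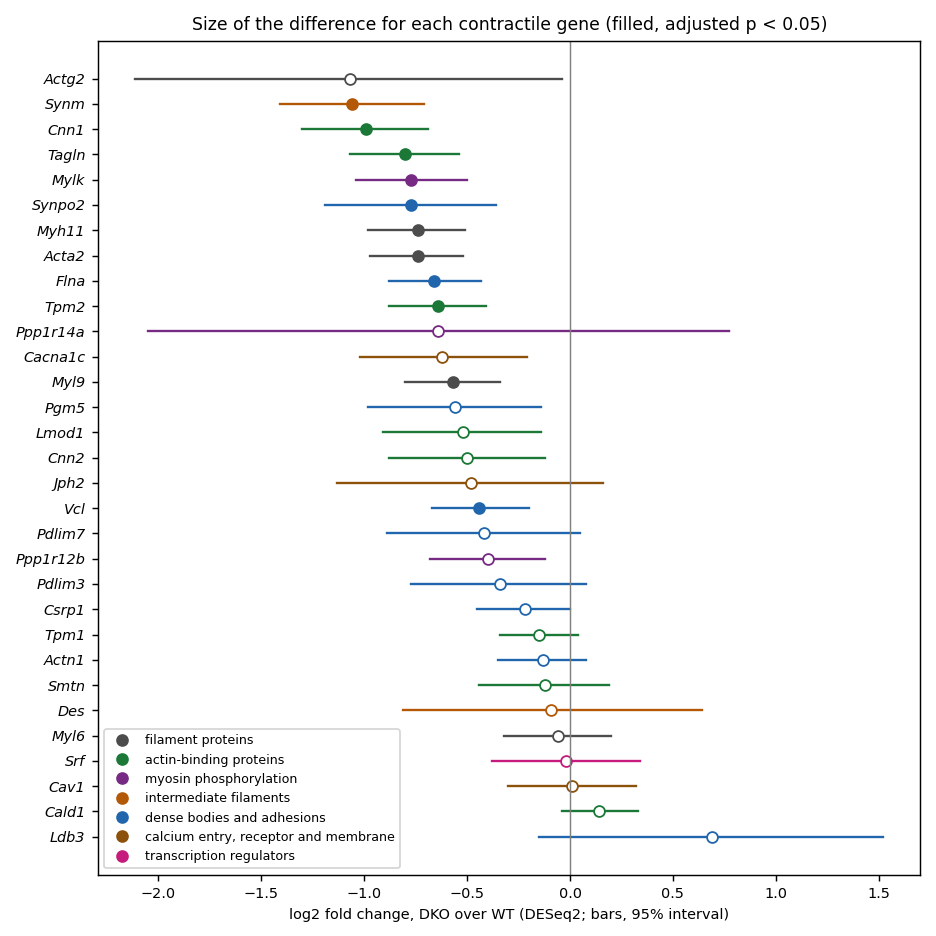
DESeq2 log2 fold change of DKO over WT with its 95% interval for 31 genes, ordered from the lowest at the top and coloured by role (Myocd, without an adjusted p, and Oxtr, untested, are not drawn). Filled circles are the 11 genes with an adjusted p under 0.05; their intervals all lie below 0, and Actg2 shows a wide interval despite the lowest value.

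The difference was not equal among the DKO libraries. Over the 32 genes, the median log2 ratio to the WT mean was -0.26 in DKO 1, -0.58 in DKO 4 and -0.63 in DKO 5, and 0.03, -0.07 and 0.01 in WT 1, 4 and 5. The same median over all rows with a mean of at least 50 was between -0.01 and 0.03 in every library. DKO 1 was the highest DKO library in 22 of the 32 genes and DKO 5 the lowest in 18. Without DKO 1 the count of lower genes was 15, the 4 added being Cnn2, Ppp1r12b, Cacna1c and Pgm5, while calls over all rows went from 539 to 740. Leaving out any other library gave 9 to 11. Without WT 5, the library with high amylase, it was 9 beside 149 calls over all rows, and without WT 1, high in leukocyte markers, it was 10 beside 151. In these 6 fits, 9 of the 11 kept their call each time.

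Counted per kb of exon, so that genes can be compared, the highest levels in WT were Acta2 at 1152 normalized counts per kb, Csrp1 at 804, Flna at 636, Myh11 at 566 and Myl9 at 551. In DKO, Csrp1 at 690 and Acta2 at 688 were about level. The 33 genes together held 0.115% to 0.137% of all counts in WT and 0.0723% to 0.0926% in DKO. Flna, Myh11, Cald1 and Acta2 supplied 50% of the summed normalized counts of the list in WT, so sums over the list rest mainly on a few genes.

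Many contractile proteins have close relatives that serve the cytoskeleton of most cells, and the ratio of the contractile form to those relatives within each library does not depend on the size factors. Ratios per kb were made for 15 genes. For Vcl the genes used were the talins Tln1 and Tln2, adhesion proteins not of its family that are counted with the relatives below. In 10 of the 15 ratios every DKO library was below every WT library. An exact two-sided permutation test gave p = 0.1 for each, the smallest value 3 against 3 libraries allow. None of these can therefore pass a 0.05 threshold. The same 10 genes lay below WT in every DKO library without the ratio, so the ratios mostly repeat that separation. For single rows the share over all rows was 10.5%, and for ratios no share over other genes was computed. Myh11 was level with the 3 non-muscle heavy chains together in WT, with ratios of 0.995, 1.03 and 1.01 to Myh9, Myh10 and Myh14, and 0.703, 0.596 and 0.57 in DKO. Acta2 relative to the cytoplasmic actins Actb and Actg1 was 0.224, 0.25 and 0.223 against 0.166, 0.121 and 0.141. The ratio of Cnn1 to Cnn2 and Cnn3 moved most, by -1.18 on the log2 scale, from 0.526, 0.607 and 0.477 to 0.295, 0.211 and 0.21. The other 7 were those of Tagln, Myl9, Tpm2, Flna, Vcl, Lmod1 and Ppp1r12b. Groups overlapped for Actg2, Tpm1, Actn1, Csrp1 and Cav1. Of the 23 relatives tested, 1 was lower, the phosphatase subunit Ppp1r12a (log2 fold change of -0.35 ± 0.10 SE, adjusted p of 0.0305, kept in 1 of the 6 fits that left out a library), 0 were higher, and their median was -0.07.

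**Figure D3:**
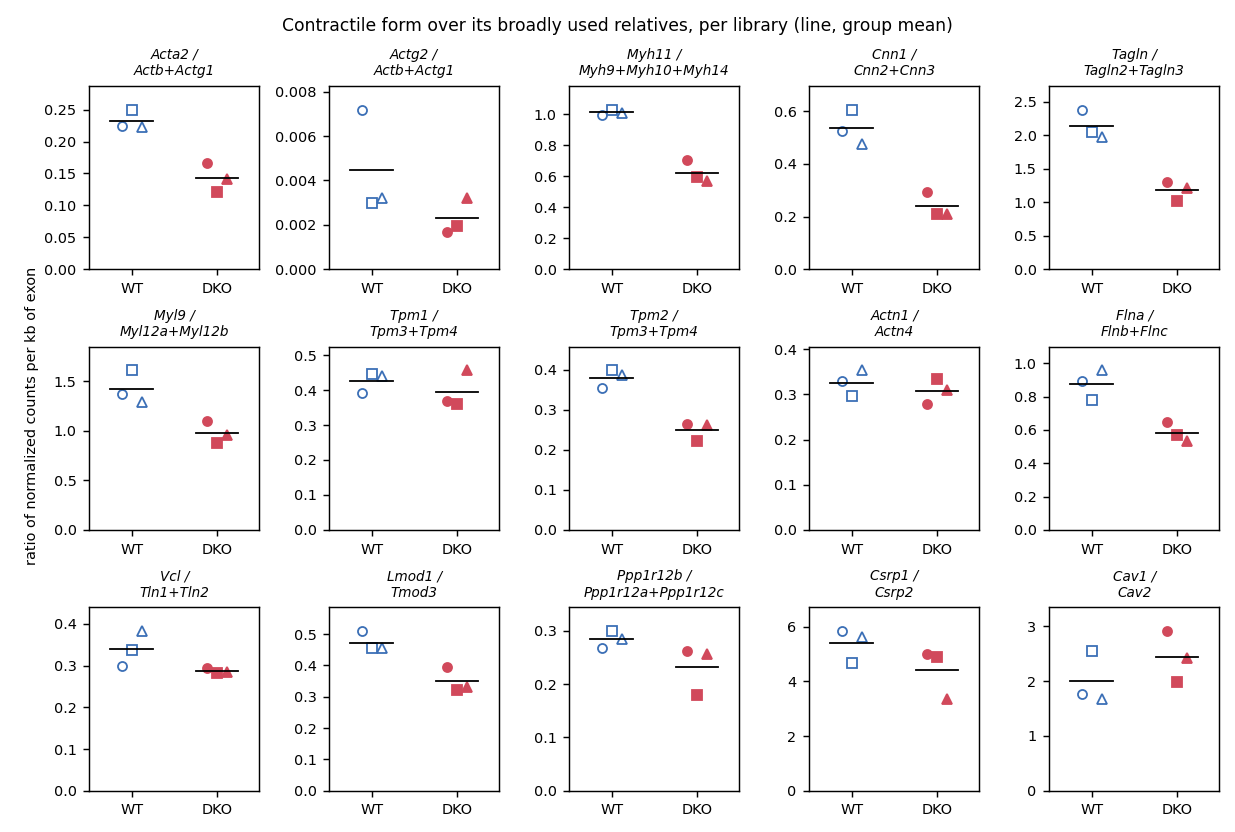
Ratio of each contractile gene to its broadly used relatives (for Vcl, the talins Tln1 and Tln2, which are not of its family), in normalized counts per kb of exon (vertical axes start at 0). Points are WT (open blue) and DKO (filled red) libraries, with a line at the group mean. In 10 of the 15 panels every DKO point is below every WT point; Tpm1, Actn1, Csrp1, Cav1 and Actg2 overlap.

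Genes around the apparatus, from lists of the contraction pathway, were mostly not called. Over all rows tested, 1.88% were lower, and in 10.5% every DKO library lay below every WT library. In the lists below, taken in order, such a separation held for 2 of 11, 3 of 15, 2 of 12, 3 of 13 and 8 of 26. For lying above WT the counts were 2, 0, 0, 0 and 1. For RhoA signalling and myosin phosphatase, 1 of 11 tested was lower (Ppp1r12a again, with the same loss of its call) and the median log2 fold change was -0.04. For calcium handling and cyclic GMP, 0 of 15 passed, with a median of -0.17. Kcnmb1, the smooth muscle subunit of the calcium-activated potassium channel, was at 24.7, 16.6 and 22.4 in WT and 5.69, 10.5 and 5.76 in DKO, apart but not called (adjusted p of 0.152). For receptors that start contraction, 0 of 12 passed (median -0.23). Among SRF cofactors and smooth muscle regulators 1 of 13 was lower, Mkl2, the myocardin-related factor also called MRTF-B, at 1394, 1612 and 1627 in WT and 1277, 1120 and 1188 in DKO (log2 fold change of -0.37 ± 0.11 SE, adjusted p of 0.0306, kept in 2 of 6 fits that left out a library). Of 26 other cytoskeleton and adhesion genes 1 was lower, Itga8, the integrin alpha 8 subunit, at 491, 510 and 539 against 367, 239 and 251 (-0.84 ± 0.18 SE, adjusted p of 4.05e-04, kept in all 6).

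The contractile genes are shared by MECs and vessel walls, so markers of these and other cell types were summed in each library. Markers of the basal epithelium including MECs summed to 1228, 1236 and 1249 normalized counts in WT and 1084, 857 and 768 in DKO. The order of the DKO libraries was that of the summed contractile genes. Leukocyte markers had this order too, at 554, 369 and 294 in DKO 1, 4 and 5. Krt14 passed the test (log2 fold change of -0.56 ± 0.15 SE), a call kept in 1 of the 6 fits that left out a library, the DKO libraries of Krt17, Trp63 and Cdh3 all lay below WT, and Krt5 overlapped, at 234 ± 26 (SD, n = 3) and 233 ± 46.1. Markers of pericytes and vascular smooth muscle summed to 2436 to 2803 in WT and 2458 to 2836 in DKO, with 0 of 9 called. Their median log2 fold change was -0.07. Endothelial markers summed to 2049 to 2342 in WT and 2237 to 2720 in DKO, with 0 of 8 called and a median of 0.28. In 4 of these 8 every DKO library lay above every WT library, and in 1 every DKO library lay below. Fibroblast markers summed to 9386 to 13009 and 7096 to 9993, with 2 of 6 lower, Pdgfra and Dcn, whose calls were kept in 2 and 1 of the 6 fits that left out a library. Leukocyte markers summed to 634 to 1679 and 294 to 554, with 1 of 6 lower, Ms4a1, whose groups overlapped. Every DKO library lay below every WT library in 4 of 5 basal epithelial, 3 of 6 fibroblast and 4 of 6 leukocyte markers. For lying below, the share over all rows was 10.5%, and for lying above it was not computed. What part the markers of basal epithelium, endothelium, fibroblasts or leukocytes played in the contractile genes was not tested.

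Striated muscle markers were low. Skeletal muscle markers summed to 60.9 to 80.2 and 58.5 to 65.7, with Myh4 and Actn3 at 0 in all 6 libraries and 0 of 6 tested called. Cardiac markers summed to 94.9 to 116 and 75.3 to 115, with Actc1 at 0 in all 6 and 0 of 2 called. Schwann cell markers (862 to 1008 and 921 to 960, 0 of 4 called) and adipocyte markers (0.978 to 12.9 and 0 to 5.69, none tested) did not separate the groups. Of 4 acinar markers 2 were higher, Aqp5 and Agr2, and of 4 duct markers 1 was lower, Egf. Log2 fold changes ran from -5.59 to 1.11 over the acinar markers and from -0.69 to 0.28 over the duct markers. The acinar markers include Amy1, which was high in WT 5 alone. The call of Aqp5 was kept in 2 of the 6 fits that left out a library, and those of Agr2 and Egf in all 6.

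**Figure D4:**
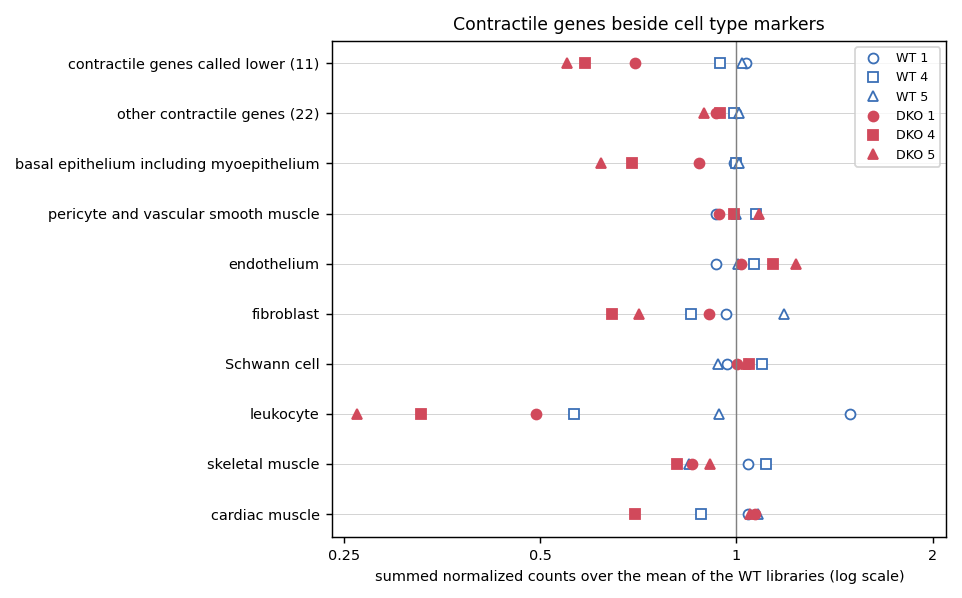
Summed normalized counts of the 11 contractile genes lower in DKO, of the other 22 and of cell type markers, each over the mean of the WT libraries (log axis), open blue for WT and filled red for DKO, shape for the library number. The 11 genes, drawn apart because they were lower, are at 0.699, 0.586 and 0.55 in DKO 1, 4 and 5, and the other 22 at 0.931, 0.946 and 0.893. In the same libraries basal epithelial markers are at 0.876, 0.692 and 0.621 and fibroblast markers at 0.909, 0.645 and 0.708. Endothelial markers are at 1.02, 1.14 and 1.24, with WT libraries from 0.931 to 1.06. Leukocyte markers are at 0.493, 0.328 and 0.262, with WT libraries from 0.564 to 1.49, and pericyte and vascular smooth muscle markers between 0.94 and 1.08.

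Reads were unstranded, so overlapping genes can share counts. Of the 50-base words in the Tagln transcripts, 58.3% also occur in another gene's transcripts, mostly the antisense gene Gm48529, which has no row, and Tagln also overlaps Pcsk7, whose log2 fold change was -0.04. For Vcl the share was 25.1%, with Ap3m1 on the opposite strand, whose log2 fold change was 0.15. For the other 9 genes called lower it was at most 5.16%, and Acta2 (chr19:34241090-34255590), Myh11 (chr16:14194535-14291372), Cnn1 (chr9:22099216-22109630) and Flna (chrX:74223461-74249820), in GENCODE M21 coordinates of GRCm38, could be counted almost without a shared partner.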

How the data were processed

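The authors prepared unstranded Nextera XT libraries from 6 glands and sequenced them on a HiSeq2500. They deposited raw counts per gene symbol, with 43280 rows, and these counts were used as deposited. The submitters' processing notes name STAR 2.5.2a, DESeq2, edgeR and limma, and the builds GRCm38, mm10 and GRCh38, the last a human build, with no role given for any. The counting tool and the annotation are not given in the sources used here. A filtered and a normalized table were not used here.

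The 18606 rows whose counts over all 6 libraries came to 10 or more were tested by DESeq2 1.42.0 in R 4.3.3, two-sided Wald test of DKO over WT, unshrunken log2 fold changes, median-of-ratios size factors (0.8673 to 1.116) and Benjamini-Hochberg adjustment over all rows. A gene was called at an adjusted p under 0.05, and 2556 rows received no adjusted p. Normalized counts are counts over the size factor, and ± is SD (n = 3) unless SE is written. edgeR 4.0.16 was the second test, and the fits were tested on simulated data. Gene positions and exon lengths came from GENCODE M21, and promoter sequences from RefSeq. Total counts of 23674258 to 29611975 leave genes under about 10 counts imprecise.

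The genes named were all 33 contractile genes, and from the lists of relatives, pathways and cell types those called, the targeted genes, relatives used in ratios and those overlapping a contractile gene. Krt17, Krt5, Trp63, Cdh3, Kcnmb1 and Amy1 were named after their values were seen. The contractile genes and the lists were chosen with earlier results of these data known. Alternatives changed the test (edgeR), the size factors (TMM or library totals), the count minimum (none, or 10 counts in 3 or more libraries), added a replicate block, or dropped the libraries one by one.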

Additional observations from a re-analysis of the deposited data

How the results depend on the processing

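Among the contractile genes, 11 were called lower with DESeq2, also with TMM size factors, with no count filter and with a minimum of 10 counts in 3 or more libraries. The number was 0 with edgeR and 19 with total counts as size factors, where the median of all rows shifted by -0.23, and 9 to 15 when 1 library was left out. Their median log2 fold change of -0.49 became -0.72 with total counts and ran from -0.60 to -0.41 without 1 library. Over all rows, 539 calls became 10 with edgeR, 1469 with total counts and 149 to 817 without 1 library. With the replicate number as a replicate block, 9 contractile genes (without Synpo2 and Vcl) and 343 rows were called. The numbers were not treated as pairs, since nothing in the labels ties them. Same-numbered libraries deviated with correlations of -0.133, -0.0244 and -0.259, and differently numbered ones with -0.39 to 0.446. These values cannot exclude a pairing. No contractile gene was called higher in any of these 12 alternatives. Signs changed only in genes that were not called. With total counts Cald1 became -0.09 and Cav1 -0.22, and with the replicate block Cav1 became -0.0032. Leaving out 1 library, Cav1 ran from -0.09 to 0.13, Myl6 from -0.20 to 0.04, Des from -0.27 to 0.05 and Srf from -0.14 to 0.07. The cause of these shifts was not tested. Depth limits Oxtr, Myocd and Ppp1r14a, and 3 libraries a group limit every ratio tested by permutation.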
